A study of Mus musculus with 22 samples.

Results

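The comparison asked whether the transgene of Tol mice had a different effect on gene expression in cerebrum than in thymus. For each gene, the difference between Tol and wild-type (WT) cerebrum was set against the difference between Tol and WT thymus, so that a positive interaction means a more positive effect in cerebrum and a negative interaction a more positive effect in thymus. All thymus and cerebrum libraries of the study entered, 16 of its 22, and the other 6 libraries, from cerebellum, served as libraries outside the comparison. There were 4 Tol and 4 WT thymi and 4 Tol and 4 WT cerebra. The mice were C57BL/6. Tol mice were heterozygous for the Tol transgene, a scrambled open reading frame that joins fragments of fluorescent proteins, firefly luciferase and Cre recombinase under the broadly active CAG promoter, placed 3′ of Col1a1 by cassette exchange in embryonic stem cells, and WT mice were their littermates. No group received a treatment. By the study's methods, mice were used at 7 to 14 weeks of age, with no age for single mice. The organs are likely to share mice, but the labels do not say which libraries came from the same animal, and p-values measure the spread between these samples. The RNA came from frozen tissue, and the libraries were made by a stranded kit after poly(A) selection. Each value is a count of reads assigned to a gene, and levels are given as CPM, the count scaled to a common library total after TMM scaling, which sets libraries of different composition on 1 scale.

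Thymus is the organ in which T cells mature and in which those that react to proteins of the body are removed, and most of its cells are developing thymocytes. Cerebrum is made of neurons, glia and a vascular bed with a tight blood-brain barrier. Both express heat shock, sterol and immediate early genes, whose levels follow protein folding, sterol supply and recent signals. In bulk RNA, fewer cells of a type and less RNA per cell cannot be told apart.

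Totals ranged from 14543698 to 34776973 counts per library, and Thymus Tol 1 had the highest. Thymus-defining genes had a mean log2(CPM + 1) of 8.06 to 8.27 in the thymus libraries and of 0.531 to 0.92 in the cerebrum libraries, and cerebrum-defining genes of 9.56 to 9.92 in cerebrum and of 2.29 to 2.75 in thymus, as labelled. Cerebrum Tol 4 and Cerebrum WT 3 stood apart from the other cerebra. Their markers of striatal projection neurons had mean log2(CPM + 1) levels of 6.97 and 7.75, against 4.07 to 4.94 in the other 6 cerebra.

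The Tol transcript was at 26.3, 21.1, 20.1 and 24.7 CPM in Tol thymi 1 to 4 and at 171, 148, 165 and 177 CPM in Tol cerebra 1 to 4. WT libraries held 0 to 2 counts of it. All Tol cerebra were above all Tol thymi. The level was 165 ± 12.5 CPM (SD, n = 4) in Tol cerebrum and 23.1 ± 2.91 CPM (SD, n = 4) in Tol thymus, a log2 difference of 2.79 (two-sided exact permutation test on log2(CPM + 1), p = 0.0286, the smallest that 4 against 4 allow). The transcript was left out of the genes tested.

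In all, 17 of 17774 genes passed an adjusted p of 0.05 for the interaction (edgeR's quasi-likelihood test with Benjamini-Hochberg adjustment), or 0.0956% of the genes tested. The interaction was positive for 7 of them (0.0394% of genes tested) and negative for 10 (0.0563%). They were Ildr2, Flrt2, Hsph1, Banp, Zfp39, 1190002N15Rik and Zfp507 on the positive side and Nab2, Klf10, B230118H07Rik, N4bp3, Slc14a1, Slc2a1, Ctso, Stk40, Slc25a25 and Srf on the negative side. The first genes outside the threshold were Grasp (edgeR adjusted p = 0.0527) and H2afv. At an unadjusted p of 0.05, 2881 genes (16.2%) passed, 1159 with a positive (6.52%) and 1722 with a negative interaction (9.69%). By sign alone, 48.2% of all interactions were positive. With single libraries left out, 1158 genes passed without Thymus Tol 1, 42 without Cerebrum WT 3, 19 without Thymus Tol 3, 11 without Cerebrum Tol 3 or Cerebrum WT 2, and 7 without Thymus Tol 4. The number was 5 without Thymus WT 2, 3 without Thymus WT 3, Cerebrum Tol 2 or Cerebrum WT 4, and 2 without Thymus Tol 2, Thymus WT 1, Thymus WT 4, Cerebrum Tol 1, Cerebrum Tol 4 or Cerebrum WT 1. Ildr2 and Slc2a1 passed in all 16 of these fits, and each of the other 15 genes in 2 to 7. Without both cerebra high in striatal markers, an alternative chosen after the data were seen, 13 genes passed, 8 of them among the 17. With all 22 libraries in 1 fit no gene passed (2146 at an unadjusted p under 0.05, edgeR), and Ildr2 and Slc2a1 had edgeR adjusted p of 0.23 and 0.193. They passed in 13 of 15 alternatives to the fit.

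In the same fit, the effect of Tol passed in thymus and not in cerebrum for 9 of the 17 genes, in cerebrum and not in thymus for 8, and in both organs for 0. The effect in the other organ was not always small: in 5 of the 17, Tol and WT libraries were apart in both organs, with opposite directions. Over all genes, 233 passed in thymus (1.31%) and 72 in cerebrum (0.405%). In thymus 142 of them rose (0.799%) and 91 fell (0.512%), and in cerebrum 12 rose (0.0675%) and 60 fell (0.338%). By sign alone, 51.4% of the effects were positive in thymus and 46.7% in cerebrum. With single libraries left out, the thymus count ran from 6 without Thymus WT 1 to 1975 without Thymus Tol 1, and the cerebrum count from 26 without Cerebrum Tol 1 to 122 without Cerebrum WT 3. Fitted on its own 8 libraries, thymus gave 13 genes and cerebrum 0 by edgeR, with 3966 and 1531 genes at an unadjusted p under 0.05, and the cerebrum effects of the 8 genes had edgeR adjusted p from 0.139 to 0.165. Of the 9 genes that passed in thymus, 6 passed in thymus fitted on its own. The spread between libraries of a group, as edgeR's common coefficient of variation, was 11.3% in thymus, 17% in cerebrum and 14.4% in the joint fit. Why the organs gave fewer genes alone was not tested. As the same values chose these genes, it is a description and no support that Tol and WT libraries did not overlap in thymus for the 9 and in cerebrum for the 8 (10.8% and 6.01% of all genes), and in both organs for 5 (0.596% of all genes).

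**Figure D1:**
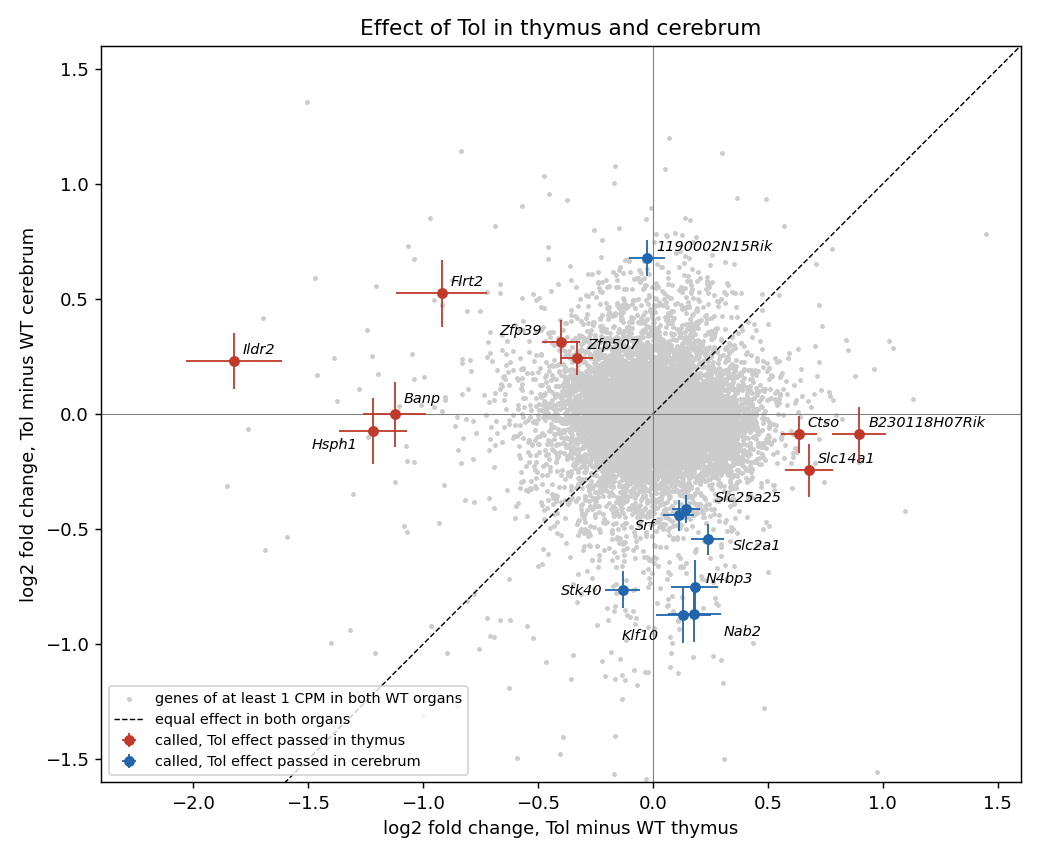
Log2 fold change of Tol against WT in thymus (x axis) and cerebrum (y axis), both from the joint fit. Grey points are genes of at least 1 CPM in both WT organs, points beyond the axis limits are not drawn, coloured points are the 17 called genes with bars of 1 standard error, and the dashed line marks an equal effect in both organs. The 9 genes that passed in thymus lie left and right of the centre, and the 8 that passed in cerebrum lie above and below it.

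Of the 9 genes whose effect passed in thymus, 6 fell in Tol thymus and 3 rose. The largest interaction among the 17 belonged to Ildr2 (ENSMUSG00000040612, GRCm38 chromosome 1, 166254139 to 166316823, plus strand), a member of the angulin family of tricellular junction proteins. It was at 0.746, 0.661, 1.42 and 1.2 CPM in Tol thymi 1 to 4 and at 4.18, 3.56, 2.27 and 3.86 CPM in WT thymi 1 to 4. In cerebrum it was abundant, with 250, 247, 225 and 247 CPM in Tol and 221, 205, 180 and 220 CPM in WT mice. The highest Tol thymus lay under the lowest WT thymus, and all Tol cerebra lay above the WT cerebra. Its log2 fold change was -1.82 in thymus (standard error 0.21, edgeR adjusted p = 0.00156) and 0.23 in cerebrum (edgeR adjusted p = 0.525), and its interaction 2.05 (standard error 0.24, edgeR adjusted p = 0.00415). An exon of 5330438I03Rik overlaps Ildr2 on the opposite strand. The other angulins, Lsr and Ildr1, had interactions of -0.45 and 0.22, neither past the threshold (edgeR adjusted p = 0.161 and 0.860).

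Hsph1, which encodes the Hsp110 chaperone that recharges Hsp70, was at 53.1, 39, 75.2 and 43.1 CPM in Tol thymi 1 to 4 and at 141, 121, 110 and 118 CPM in WT thymi 1 to 4. Cerebrum held 356, 351, 379 and 378 CPM in Tol and 369, 402, 377 and 394 CPM in WT mice. The thymus groups were apart and the cerebrum groups overlapped. The log2 fold change was -1.22 in thymus (standard error 0.15, edgeR adjusted p = 0.00156) and -0.07 in cerebrum, an interaction of 1.14 (standard error 0.20, edgeR adjusted p = 0.0376). Banp, a nuclear matrix protein that binds regulatory DNA, was at 21.6, 18.1, 27.7 and 17.5 CPM in Tol and 51.6, 46.6, 39.5 and 47.4 CPM in WT thymi. In cerebrum Banp lay between 20.8 and 24.4 CPM in Tol mice and between 18.1 and 26.5 CPM in WT mice, with the WT range enclosing the Tol range. The Tol thymi were thus near the level of cerebrum and the WT thymi above it, with an interaction of 1.12 (standard error 0.20, edgeR adjusted p = 0.0353). An exon of Gm27011 overlaps Banp on the opposite strand.

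Flrt2, an adhesion protein of neurons and stroma, was at 3.06, 1.98, 3.54 and 3.56 CPM in Tol thymi and at 5.77, 6.18, 3.59 and 7.2 CPM in WT thymi. Its cerebrum levels were 163, 148, 138 and 145 CPM in Tol and 99.8, 121, 84.6 and 107 CPM in WT mice. The groups were apart in both organs, though Tol 4 and WT 3 thymi were nearly level, and the direction was opposite. The interaction was 1.44 (standard error 0.25, edgeR adjusted p = 0.0342), from -0.92 in thymus (edgeR adjusted p = 0.0403) and 0.52 in cerebrum (edgeR adjusted p = 0.167). The zinc finger genes Zfp507 and Zfp39 had the same form. Their log2 fold changes were -0.33 and -0.40 in thymus, each with an edgeR adjusted p of 0.0403, and 0.25 and 0.31 in cerebrum, with edgeR adjusted p of 0.193 and 0.201. Both lie over exons of other genes on the opposite strand.

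The 3 genes that rose in Tol thymus were Ctso, which encodes the lysosomal protease cathepsin O, the urea transporter gene Slc14a1, and B230118H07Rik. Ctso was at 41.2, 48.8, 39.3 and 48.3 CPM in Tol and 27.8, 31.1, 26.3 and 29.1 CPM in WT thymi, and between 30.1 and 34.8 CPM in every cerebrum. The thymus groups were apart, and the cerebrum groups overlapped. Its interaction was -0.72 (standard error 0.11, edgeR adjusted p = 0.0315). Slc14a1 rose by 0.68 on the log2 scale in thymus (edgeR adjusted p = 0.0111) and in cerebrum its difference was -0.24 (edgeR adjusted p = 0.455). B230118H07Rik had log2 fold changes of 0.90 in thymus (edgeR adjusted p = 0.00268) and -0.09 in cerebrum. Its annotated exons overlap Rag1 on the same strand and Rag2 on the other, genes that thymocytes express at high levels, so reads could have been split among them and its value is uncertain.

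Of the 8 genes whose effect passed in cerebrum, 7 fell in Tol cerebrum and 1 rose. Slc2a1 (ENSMUSG00000028645, chromosome 4), which encodes the glucose transporter GLUT1 of the blood-brain barrier, was at 79.2, 80.1, 74.3 and 79 CPM in Tol cerebra 1 to 4 and at 107, 125, 113 and 111 CPM in WT cerebra 1 to 4. In thymus it was at 22.1, 24.6, 20.3 and 21.3 CPM in Tol and 18.7, 19, 19.9 and 17.4 CPM in WT mice. No group overlapped the other in either organ, with Tol below WT in cerebrum and above it in thymus. The log2 fold change was -0.54 in cerebrum (standard error 0.07, edgeR adjusted p = 0.00233) and 0.24 in thymus (edgeR adjusted p = 0.0803), an interaction of -0.78 (standard error 0.10, edgeR adjusted p = 0.00415). Gm12868 overlaps it on the opposite strand. Genes of the endothelium and the barrier were mixed as a list. Of 14 such genes tested, Slc2a1 included, 9 had a positive and 5 a negative interaction, with a median of 0.34 against -0.01 over all genes. At an unadjusted p of 0.05, 4 positive and 3 negative ones passed (50% against 16.2% of all genes). The junction gene Tjp1 fell in Tol thymus by 0.48 on the log2 scale (edgeR adjusted p = 0.0462) and was at -0.01 in cerebrum, and Cdh5 and Flt1, of endothelial junctions and of VEGF signalling, had interactions of 0.44 each (edgeR adjusted p = 0.125 and 0.139). Mfsd2a and Slc7a5, transporters of lipids and amino acids at the barrier, had negative interactions of -0.57 and -0.40 (edgeR adjusted p = 0.304 and 0.172).

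Klf10, Nab2 and Srf encode transcriptional regulators tied to early responses of cells to signals: Klf10 is an early target of TGF-beta, Nab2 is a corepressor of EGR factors, and Srf drives many immediate early genes. Klf10 was at 35.1, 35.5, 42.4 and 33.3 CPM in Tol and 60.4, 88.3, 65.2 and 54.8 CPM in WT cerebra, and between 48.1 and 64 CPM in every thymus. Nab2 was at 28.5, 25.6, 34.8 and 24.2 CPM in Tol and 45.9, 61.5, 48.1 and 52 CPM in WT cerebra. Srf was at 51.6, 49.8, 49.9 and 48.4 CPM in Tol and 62.6, 69.7, 66.6 and 72.1 CPM in WT cerebra. All Tol cerebra were below all WT cerebra for the 3 genes, while the thymus groups overlapped. Their log2 fold changes were -0.87, -0.87 and -0.44 in cerebrum (edgeR adjusted p = 0.00551, 0.00551 and 0.00729) and 0.13, 0.18 and 0.11 in thymus, which gave interactions of -1.01, -1.05 and -0.55. Nab2 shares exon sequence on the opposite strand with Nemp1, Stat6 and Gm16229.

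Stk40, which encodes a kinase-related protein, was at 26.8, 28.7, 27.9 and 24.9 CPM in Tol and 46.7, 52.6, 39.3 and 45.5 CPM in WT cerebra. It had the lowest p of the Tol effect in cerebrum, -0.76 on the log2 scale (standard error 0.08, edgeR adjusted p = 0.00064), and a log2 fold change of -0.13 in thymus. N4bp3, a partner of the ubiquitin ligase NEDD4, and Slc25a25, a mitochondrial carrier of adenine nucleotides, had interactions of -0.93 and -0.55 (edgeR adjusted p = 0.0342 and 0.0315). In the other direction, 1190002N15Rik was at 73.7, 77.7, 63.9 and 73.5 CPM in Tol and 45.8, 51.2, 38 and 45.5 CPM in WT cerebra. It lay between 53.1 and 60.1 CPM in every thymus. The cerebrum groups were apart and the thymus groups overlapped, with an interaction of 0.70 (standard error 0.11, edgeR adjusted p = 0.0327).

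**Figure D2:**
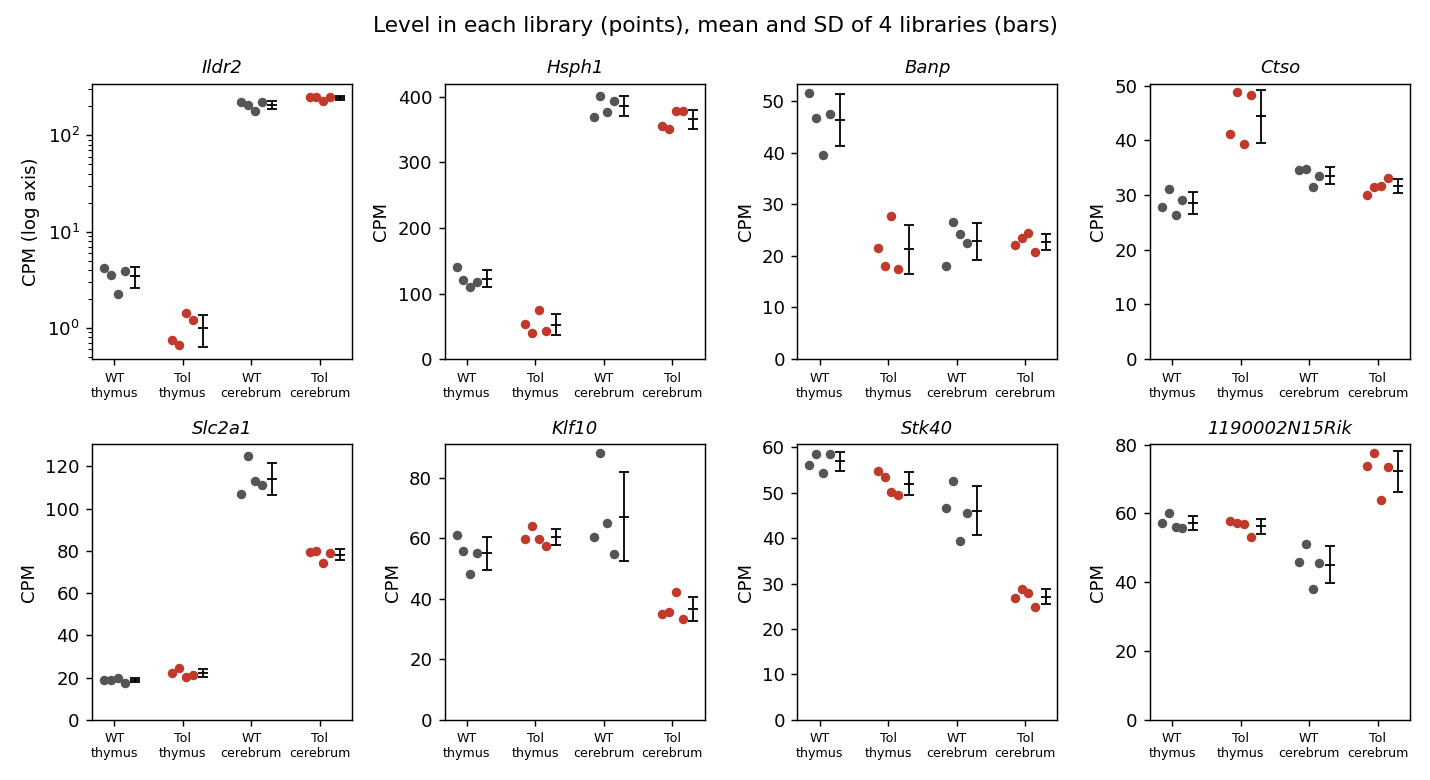
CPM in each library for 4 genes whose effect passed in thymus (upper row) and 4 whose effect passed in cerebrum (lower row). Points are libraries, red for Tol and grey for WT, bars are the mean and SD of 4 libraries, and Ildr2 has a log axis. Ildr2, Hsph1 and Banp were lower and Ctso higher in Tol thymus, and Slc2a1, Klf10 and Stk40 were lower and 1190002N15Rik higher in Tol cerebrum.

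All 17 genes had at least 1 CPM in both WT organs. Their longest annotated transcripts ranged from 2273 to 8251 bases (median 3821), and they lay on 14 chromosomes. Annotated exons of 8 of them overlapped another gene, 1 on the same strand. The cerebellum libraries, which may come from the same mice, gave values outside the comparison. Cerebellum Tol 2 stood apart from the other cerebella, only 2 Tol libraries were present, and no gene passed there (0 of 16662, with 563 at an unadjusted p under 0.05, edgeR). Slc2a1 was at 70.5 and 98.5 CPM in the Tol cerebella and at 111, 140, 101 and 96.8 CPM in the WT cerebella, a log2 fold change of -0.41 (standard error 0.21). Banp was at 20.3 and 10 CPM in Tol and 25.7, 22.7, 33.1 and 29.5 CPM in WT cerebella, a log2 fold change of -0.87 (standard error 0.31), where the cerebrum groups overlapped. Ildr2 was at 15.8 and 80.9 CPM in Tol and 29, 22.5, 9.04 and 9.64 CPM in WT cerebella, a log2 fold change of 1.46 (standard error 0.73), opposite to thymus and with overlap. Zfp39, at 0.46, was likewise opposite to thymus, and N4bp3, at -0.54, had the sign of cerebrum. None of the 5 passed (edgeR adjusted p = 0.946 each). Of the 9 genes that passed in thymus, 2 had the same sign in cerebellum. Of the 8 that passed in cerebrum, 5 had the same sign in cerebellum, with Slc25a25 at only -0.005. Srf (0.24), 1190002N15Rik (-0.46) and Klf10 (0.05) were opposite to cerebrum.

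Over all genes, the interaction moved with transcript length. Among 12803 genes of at least 1 CPM in both WT organs, Spearman's rho between the interaction and the longest annotated transcript was 0.469 (rho = -0.481 for the effect in thymus and 0.204 in cerebrum, across genes, which share their libraries and are not independent). These genes were split by length into 10 bins of equal size. In the bin of the shortest transcripts (87 to 1354 bases) the median interaction was -0.29, and in the bin of the longest (6981 bases or more) it was 0.21. The tilt differed between Tol thymi. The median log2 deviation from the mean of the thymus libraries in the shortest bin, minus that in the longest, was 0.43 in Tol 2, 0.15 in Tol 3, 0.35 in Tol 4 and -0.21 in Tol 1, against -0.26 to -0.04 in WT thymi. Thymus Tol 1 was thus within the range of WT thymi, and the other Tol thymi above it. In cerebrum it was -0.15 to 0.05 in Tol and -0.04 to 0.15 in WT libraries, with overlap. The part of transcript length in the gene lists and calls was not tested beyond the fit with length and GC trends removed.

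**Figure D3:**
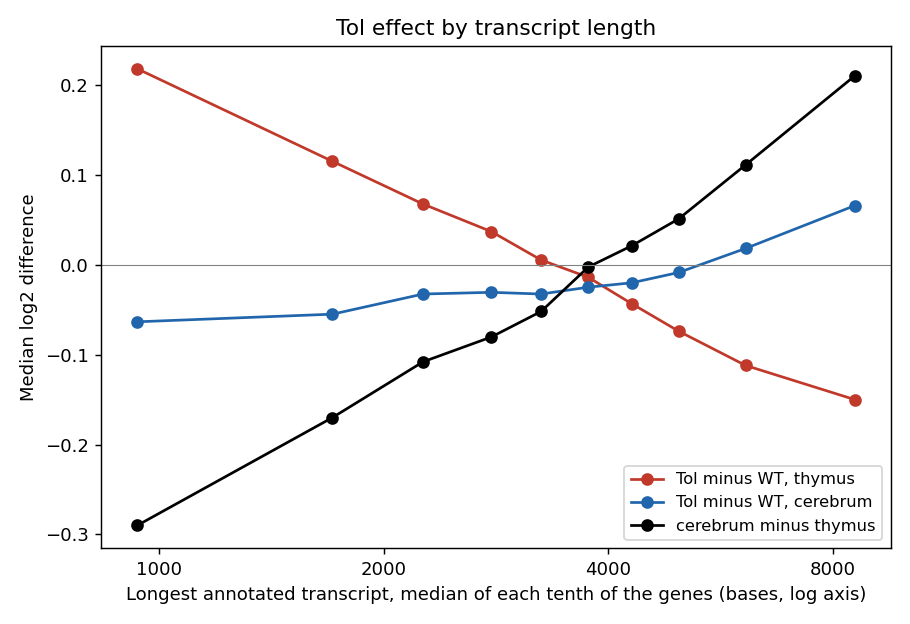
Median log2 difference (y axis) in 10 bins of 12803 genes ranked by longest annotated transcript (x axis, bases, log scale), for Tol against WT in thymus (red), in cerebrum (blue) and for the interaction (black). The thymus effect went from 0.22 in the shortest bin to -0.15 in the longest, and the cerebrum effect from -0.06 to 0.07.

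Genes of cytosolic ribosomal proteins are short, and their products serve translation in the cytosol. These genes had negative interactions in 83 of 83 cases, and 78 passed an unadjusted p of 0.05, or 94% against 16.2% of all genes. The median interaction was -0.50, from 0.32 in thymus and -0.18 in cerebrum. Nuclear genes of oxidative phosphorylation, also short, were negative in 77 of 77 cases, with 61 past the unadjusted p and a median of -0.41. No gene of either list passed the adjusted p for the interaction. In thymus 6 ribosomal and 9 respiratory genes rose in the joint fit, where 0.799% of all genes did. Rpl13 was at 133, 175, 151 and 170 CPM in Tol and between 111 and 130 CPM in WT thymi, and at 38.2, 43.2, 36.9 and 44.9 CPM in Tol and 47, 42.8, 46.5 and 52 CPM in WT cerebra. The thymus groups were apart and the cerebrum groups overlapped. With each library's trend with length and GC content removed, the medians were -0.25 and -0.13, and 45 and 23 genes had a negative interaction past the unadjusted p. By that fit 12.8% of all genes passed.

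Cholesterol synthesis, the pathway from acetyl-CoA to sterols that cells raise when their sterol level is low, had the same direction. All 21 genes had a negative interaction (median -0.46), 14 passed an unadjusted p of 0.05 (66.7% against 16.2% of all genes) and none the adjusted p. With length and GC trends removed, 15 passed the unadjusted p (71.4% against 12.8%), 1 of them the adjusted p, and the median was -0.42. The median effect was 0.32 in thymus and -0.15 in cerebrum, and 1 gene, Pmvk, rose in thymus (log2 fold change 0.51, edgeR adjusted p = 0.0403). Of all genes, 0.799% rose there. Msmo1, a sterol demethylation enzyme, was at 20.9, 21.4, 17 and 15.5 CPM in Tol and 13.7, 12.5, 15.4 and 14.9 CPM in WT thymi. In cerebrum it was at 69.6, 70.2, 71.5 and 88.7 CPM in Tol and 91.9, 89.6, 86.7 and 86.1 CPM in WT mice. Tol was above WT in every thymus, and in cerebrum Tol 4 lay among the WT libraries. Its interaction was -0.65 (edgeR adjusted p = 0.101). Mvk, the mevalonate kinase gene, had the most negative value, -0.79 (edgeR adjusted p = 0.107). Without Thymus Tol 1, the number past the unadjusted p was 9 of the 21, where 21.6% of all genes passed it.

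Chaperone genes under the heat shock factor HSF1 had lower values in Tol thymus for 20 of 23 genes and in Tol cerebrum for 21. In thymus 4 of them fell, where 0.512% of all genes did, and in cerebrum 0 passed. Of the 23, 15 had a positive interaction, 8 of them past an unadjusted p of 0.05, and 3 a negative one past it, together 47.8% against 16.2% of all genes. The list had a median of 0.13 (-0.22 in thymus, -0.07 in cerebrum). Hsph1 alone passed the adjusted p for the interaction. The 4 genes that fell in thymus were Hsph1, the constitutive Hsp70 gene Hspa8 (-0.57, edgeR adjusted p = 0.0327), the inducible Hsp70 gene Hspa1b (-0.63, edgeR adjusted p = 0.0462) and the Hsp90 cochaperone gene Chordc1 (-0.46, edgeR adjusted p = 0.0254). Hspa1b was at 15.6, 14.8, 17.2 and 14.5 CPM in Tol and 27.8, 28, 20.7 and 19.8 CPM in WT thymi, with no overlap, and in cerebrum between 11.3 and 15.8 CPM in Tol mice and between 9.19 and 14.3 CPM in WT mice, with overlap. Hspa1a and Hspa1b are near-identical copies that share reads, so neither value is certain. In the other direction, Dnajb1 and Hspb8, genes of an Hsp40 and a small heat shock protein, and Hspe1, of the mitochondrial Hsp10, had interactions of -0.43, -0.47 and -0.44 (edgeR adjusted p = 0.204, 0.219 and 0.155). Over the thymus libraries the list's mean log2(CPM + 1) was 6.19 to 6.34 in Tol and 6.42 to 6.53 in WT mice, and over the cerebrum libraries 6.52 to 6.58 and 6.55 to 6.68.

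Promoters of these chaperone genes were searched for the HSF1 motif. RefSeq windows of 300 bases around a start (250 before and 50 after, GRCm38.p6) matched 18 of the 23 genes. The letters GAANNTTC or TTCNNGAA, read on both strands, stood in at least 1 window of 12 of the 18, or in 54.2% of 24 windows, against 15.1% of all 32851 windows. Of the 17 called genes, 12 matched, with 15 windows, and 3 of them held the motif (26.7% of windows). In the same windows 4 other motifs were searched, on both strands. The E-box CACGTG stood in 5 of the 12 genes (40% of windows against 7.15% of all windows), the D-box TTANNTAA in 2 (13.3% against 6%), the cyclic AMP element TGACGTCA in 1 (6.67% against 1.79%) and the letters ACANNNTGT of the glucocorticoid response element in 0 (against 6.85%). Shown here, since they hold the motif, are windows of 3 of the chaperone genes that fell in thymus (Hspa8, the other one, had no window to search), 5′ to 3′ on the strand of the gene, with the motif in capitals, where overlapping matches run together.
Hsph1 (chr5:149636266-149636565, minus strand): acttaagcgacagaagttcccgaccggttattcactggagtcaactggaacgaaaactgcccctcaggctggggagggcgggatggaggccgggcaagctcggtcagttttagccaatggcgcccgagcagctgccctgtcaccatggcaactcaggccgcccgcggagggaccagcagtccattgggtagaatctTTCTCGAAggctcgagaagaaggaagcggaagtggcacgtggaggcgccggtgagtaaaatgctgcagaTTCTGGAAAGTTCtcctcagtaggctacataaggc
Chordc1 (chr9:18292017-18292316, plus strand): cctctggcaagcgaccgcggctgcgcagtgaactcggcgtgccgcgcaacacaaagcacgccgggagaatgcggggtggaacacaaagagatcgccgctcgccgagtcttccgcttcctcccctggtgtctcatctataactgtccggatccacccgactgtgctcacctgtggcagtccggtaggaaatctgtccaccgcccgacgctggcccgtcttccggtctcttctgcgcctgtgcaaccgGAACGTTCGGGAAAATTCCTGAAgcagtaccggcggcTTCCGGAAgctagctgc
Hspa1b (chr17:34959189-34959488, minus strand): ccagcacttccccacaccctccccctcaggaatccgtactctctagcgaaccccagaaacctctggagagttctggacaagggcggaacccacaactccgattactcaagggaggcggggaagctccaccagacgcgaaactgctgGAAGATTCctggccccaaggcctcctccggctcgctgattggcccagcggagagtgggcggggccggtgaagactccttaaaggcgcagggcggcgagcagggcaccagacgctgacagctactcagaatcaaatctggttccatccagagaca
Hsph1 held 3 matches in this window, Chordc1 5 and Hspa1b 1.

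Immediate early genes, which neurons and lymphocytes switch on within minutes of a signal, spread widely between cerebrum libraries. Of 20 genes, 18 had a negative interaction (median -0.61), but 2 passed an unadjusted p of 0.05 (10%, under the 16.2% of all genes) and none the adjusted p. In cerebrum 18 had lower values in Tol mice, as 15 had in thymus. In the joint fit 3 of the 20 fell in cerebrum, where 0.338% of all genes did. Nr4a3, an orphan nuclear receptor gene, was at 30.2, 15.8, 47.7 and 21.7 CPM in Tol and 130, 82.8, 41.4 and 134 CPM in WT cerebra, and between 24.3 and 30.2 CPM in every thymus. Cerebrum WT 3, 1 of the pair high in striatal markers, lay below Tol 3, so the cerebrum groups overlapped. It fell in cerebrum by 1.74 on the log2 scale (edgeR adjusted p = 0.0199) and had an interaction of -1.64 (edgeR adjusted p = 0.117). Fosl2 and Egr4, which encode AP-1 and EGR family factors, fell by 1.05 and 1.20 (edgeR adjusted p = 0.0243 and 0.0102). Arc and Fos, the markers of neuronal activity, were at -1.12 and -0.72 in cerebrum, and neither passed (edgeR adjusted p = 0.295 and 0.613). In cerebellum Nr4a3 was at 9.66 and 4.78 CPM in Tol and 45.2, 33.4, 30.7 and 51 CPM in WT mice, a log2 fold change of -2.47 that did not pass either (edgeR adjusted p = 0.946). Without Cerebrum WT 3, the number of the 20 genes past the unadjusted p on the negative side was 6, and without Thymus WT 4 it was 1. In these fits 15.9% and 14.5% of all genes passed it in either direction.

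Srf, called in the interaction, held the CArG box, the motif that its own protein binds. A search for this motif was chosen after the values of Srf were seen. The window at chr17:46556113-46556412, minus strand, holds 2 matches, shown in capitals, and 1.63% of all windows hold 1 or more.
Srf: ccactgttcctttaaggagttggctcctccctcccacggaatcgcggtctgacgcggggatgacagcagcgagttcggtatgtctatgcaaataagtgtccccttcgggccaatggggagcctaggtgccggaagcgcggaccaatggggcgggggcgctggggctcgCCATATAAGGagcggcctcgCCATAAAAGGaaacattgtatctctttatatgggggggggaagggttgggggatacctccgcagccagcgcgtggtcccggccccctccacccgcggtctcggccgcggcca
Of the 12 matched called genes, Srf alone held it.

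Genes of the circadian clock and of the glucocorticoid response showed a few large differences in cerebrum. Per1, a clock repressor that glucocorticoids also induce, was at 73.2, 41.9, 80 and 42.1 CPM in Tol and 172, 193, 97.6 and 167 CPM in WT cerebra. In thymus it was at 32, 30.4, 30.5 and 28.8 CPM in Tol and 39.5, 43.8, 39.2 and 37.5 CPM in WT mice. Tol was below WT in every library of both organs, with differences of -1.40 (cerebrum, edgeR adjusted p = 0.00695) and -0.39 (thymus, edgeR adjusted p = 0.307) on the log2 scale and an interaction of -1.01 (edgeR adjusted p = 0.129). In cerebellum Per1 was also lower in both Tol libraries (47.3 and 48.4 CPM) than in the WT libraries (77.8 to 95.4 CPM), and its difference, -0.87 on the log2 scale, did not pass (edgeR adjusted p = 0.946). Per2 and Bhlhe40, which encode further repressors of the clock, fell in cerebrum by 0.78 and 0.86 (edgeR adjusted p = 0.00914 and 0.00635). Of the core activators and the other arm of the loop, Arntl (0.05), Clock (0.08), Nr1d1 (-0.02), Nr1d2 (0.04) and Dbp (-0.05) were near level in cerebrum. None of these passed. Rora, also of that arm, was at 146, 211, 144 and 179 CPM in Tol cerebra. In WT cerebra it was at 125, 181, 164 and 99 CPM, with overlap, and its interaction was 0.515 (edgeR adjusted p = 0.268). Of 20 clock genes, 3 had a positive and 4 a negative interaction past an unadjusted p of 0.05 (35% against 16.2% of all genes), none past the adjusted p, and the median was -0.07.

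Of 17 glucocorticoid targets, 13 had a negative interaction (median -0.30), 5 of them past an unadjusted p of 0.05, as were 2 positive ones (41.2% in all against 16.2% of all genes), and none passed the adjusted p. Lower values in Tol mice were found for 16 of the 17 in cerebrum and for 13 in thymus. In cerebrum 2 fell and in thymus 1, against 0.338% and 0.512% of all genes. Sgk1, a kinase gene that glucocorticoids induce, was at 50.4, 47.5, 55.2 and 45.3 CPM in Tol and 74.6, 95.3, 120 and 61.1 CPM in WT cerebra, and between 24.5 and 28.1 CPM in every thymus. The cerebrum groups were apart. Sgk1 fell there by 0.82 on the log2 scale (edgeR adjusted p = 0.0169), with an interaction of -0.84 (edgeR adjusted p = 0.107). Fkbp5 and Tsc22d3, usual readouts of the receptor, were at -0.41 and -0.62 in cerebrum and at -0.31 and -0.36 in thymus, and none of these passed. The receptor gene Nr3c1 and the target Klf9 had positive interactions of 0.47 and 0.72, and Klf9 fell in thymus (-0.82, edgeR adjusted p = 0.0358). The p53 target Cdkn1a, which blocks the cell cycle, fell in Tol cerebrum as well (-0.85, edgeR adjusted p = 0.0103) and was at -0.12 in thymus. Its interaction, -0.73, did not pass (edgeR adjusted p = 0.117). Of 14 p53 targets, 4 had a positive and 10 a negative interaction. Past an unadjusted p of 0.05 were 2 and 3 of these (35.7% against 16.2% of all genes), and none passed the adjusted p. In cerebrum 1 of the 14 fell, where 0.338% of all genes did.

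Collagens and other genes of connective tissue had lower values in Tol thymus in 18 of 18 cases, but none passed there or in cerebrum by edgeR's adjusted p. The interaction was positive for 17 (median 0.37), and 7 passed an unadjusted p of 0.05 (38.9% against 16.2% of all genes) and none the adjusted p. The transgene was placed 3′ of Col1a1. Col1a1 was at 22.1, 19.9, 26.6 and 28 CPM in Tol and 36.2, 45.6, 22.7 and 38.7 CPM in WT thymi, and at 13.6, 21.1, 7.45 and 11.3 CPM in Tol and 10.8, 4.3, 5.38 and 7.94 CPM in WT cerebra. The groups overlapped in both organs. Its interaction was 1.47 (standard error 0.41, edgeR adjusted p = 0.125), and that of Col1a2, on another chromosome, 1.50 (edgeR adjusted p = 0.116). In cerebellum Col1a1 was at 22.4 and 68.7 CPM in Tol mice and between 12.3 and 16.2 CPM in WT mice, without overlap, and its difference of 1.66 on the log2 scale did not pass (edgeR adjusted p = 0.946). Col1a2 and the collagen gene Col3a1 were likewise higher in both Tol cerebella, without overlap, by 1.10 and 1.61 (edgeR adjusted p = 0.946 each). Col1a2 was at 42.4 and 83.2 CPM and Col3a1 at 14.8 and 41.3 CPM in Cerebellum Tol 1 and 2. For all these collagen genes the higher value was that of Cerebellum Tol 2, which stood apart from the other cerebella. How many of all genes were without overlap in cerebellum was not determined. The connective tissue gene Bgn, at 0.25 there, overlapped. Of 21 tested genes whose start lies within 500 kb of that of Col1a1, itself included, 1 had a positive and 1 a negative interaction past the unadjusted p. The positive one was Col1a1. That is 9.52% of these genes, under the 16.2% of all genes. The adipocyte markers of the thymus libraries had mean log2(CPM + 1) levels of 1.4 to 3.43 in Tol and 2.32 to 3.55 in WT mice, with overlap, and the part of adjoining tissue in the result was not tested. With length and GC trends removed, 4 of the 18 connective tissue genes passed the unadjusted p (22.2% against 12.8%).

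**Figure D4:**
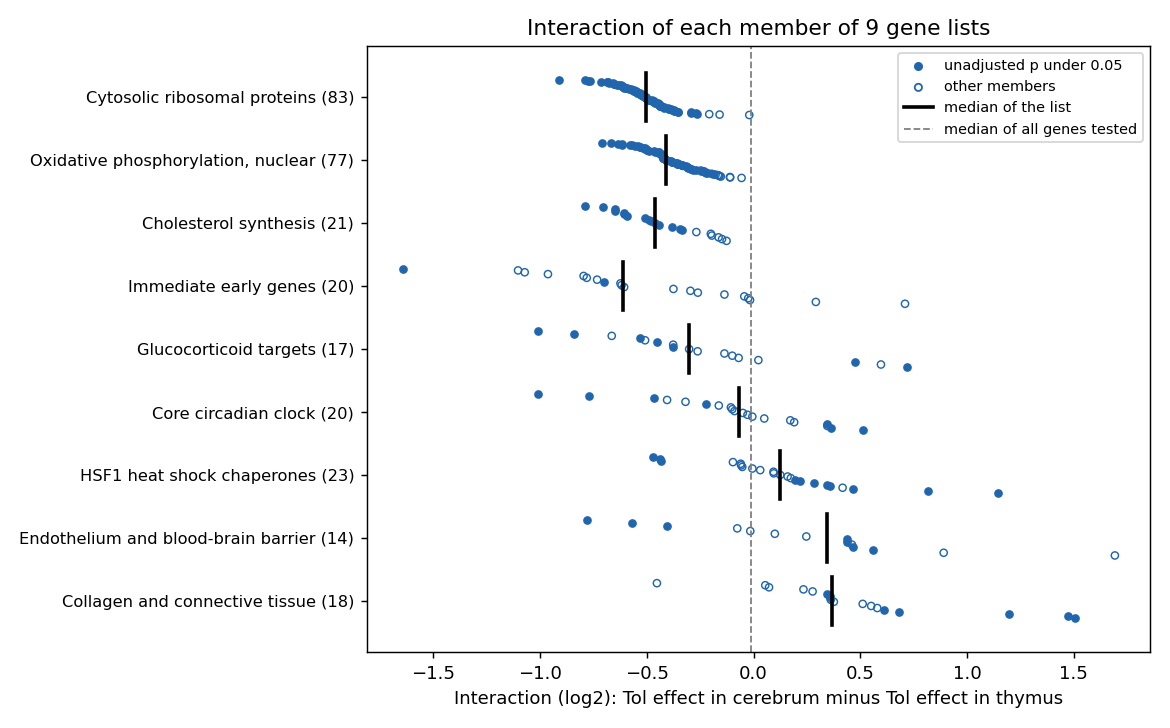
Interaction of each tested member (x axis, log2) of 9 gene lists, with the number tested in brackets. Filled points have an unadjusted p under 0.05, vertical bars are list medians, and the dashed line is the median of all genes tested. Ribosomal, respiratory and sterol genes lie wholly on the negative side, and collagen genes on the positive side but for 1.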

How the data were processed

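RNA-seq was measured in thymus, cerebrum and cerebellum. The authors estimated counts per transcript with Salmon 0.14.1 against GRCm38 with the Tol sequence added (edgeR 3.9 is also named in the submitters' notes), and the deposited values are estimated counts for each gene, all whole numbers and used here without rounding. How transcripts were summed to genes is not given in the sources used here. Totals of the 16 libraries ranged from 14543698 to 34776973. The row of the Tol transcript was left out of the genes.

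Thymus and cerebrum were fitted together with edgeR 4.0.16 (R 4.3.3), with filterByExpr, TMM scaling and the newer form of the quasi-likelihood test, with the interaction as main test and Benjamini-Hochberg adjustment over all genes at a threshold of 0.05. Cerebellum was fitted on its own. Fold changes are log2. Exon overlap and transcript length came from GENCODE vM21, and figures from matplotlib 3.10.9 under Python 3.11.15. The fit was tested on simulated data. Alternatives were DESeq2 1.42.0, limma 3.58.1 (voom with library weights), other filters, scalings, libraries, a block by replicate number, and each library left out in turn. Named were the Tol transcript, Banp, Ildr2, Col1a1, every called gene up to 30, up to 4 members of each list with the lowest unadjusted p under 0.05 (otherwise the member with the lowest p) and the 3 genes of lowest p per organ. Genes named outside this rule (Arc, Arntl, Chordc1, Dbp, Dnajb1, Egr4, Fkbp5, Fos, Grasp, H2afv, Hspa1a, Hspb8, Ildr1, Mfsd2a, Nr1d1, Nr1d2, Per2, Slc7a5, Tsc22d3 and genes that overlap a called one) were chosen after their values were seen. Comparison, lists and motifs were chosen with earlier results of these data known. Same-numbered thymi and cerebra were checked for pairing: 1 of 8 correlations of their deviations was over 0.1 (-0.0252 to 0.165). Deviations in unlike organs cannot show whether a shared number means a shared mouse. Outside the alternative fits with a block, a number was therefore used only to name a library.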

Additional observations from a re-analysis of the deposited data

Results flagged for a closer look

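Effects of Tol that differed between the organs, by the interaction (edgeR adjusted p from 0.00415 to 0.0376), were those of Ildr2 (2.05), Flrt2 (1.44), Hsph1 (1.14), Banp (1.12), Zfp39 (0.71), 1190002N15Rik (0.70) and Zfp507 (0.58) on the positive side. On the negative side they were those of Nab2 (-1.05), Klf10 (-1.01), B230118H07Rik (-0.99), N4bp3 (-0.93), Slc14a1 (-0.92), Slc2a1 (-0.78), Ctso (-0.72), Stk40 (-0.63), Slc25a25 (-0.55) and Srf (-0.55).

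In 7 of 108 groups of 4 libraries (6.48%), 1 library's gap to the nearest, as a share of the whole range, was above the 95% critical value of Dixon's test, and chance gives about 1 in 20. For total counts, these were Thymus Tol 1, the highest of its group (0.877), Thymus WT 4, the highest (0.874), and Cerebrum Tol 4, the lowest (0.867). For genes, they were 1190002N15Rik in Thymus Tol 4, the lowest (0.830), Ildr2 in Cerebrum Tol 3, the lowest (0.880), and Msmo1 in Cerebrum Tol 4, the highest (0.901). The striatal marker level of Cerebrum WT 3 was the highest of the WT cerebra (0.951).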

How the results depend on the processing

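The 17 genes (7 positive, 10 negative) became 495 with DESeq2 (209 and 286), 980 with limma-voom and library weights (421 and 559), 49 with at least 10 counts in every library (24 and 25) and 50 with at least 1 CPM in each group (25 and 25). With all 22 libraries in 1 edgeR fit they became 0 (0 and 0, with 2146 genes at an unadjusted p under 0.05). With length and GC trends removed, 23 genes passed, 17 of them negative, and 14 of the 17 were among them. Without the 2 striatal-high cerebra, added after the data were seen, 13 passed, 3 of them positive. With a block by replicate number, 4 genes passed (2 and 2), with a block by genotype and number 9 (3 and 6), and with that block and length and GC trends removed 1 (0 and 1). The numbers were not shown to pair the samples, and 4 thymi correlated best with the cerebrum of their own number. With each library left out, 2 to 1158 genes passed, 1 to 525 positive and 1 to 633 negative. The 233 genes of thymus became 112 with the older form of the quasi-likelihood fit, 68 with no filter, 536 with at least 10 counts, 551 with at least 1 CPM, 47 with all libraries, 42 with the block by number, 13 in thymus alone and 6 to 1975 with each library left out. The 72 genes of cerebrum became 28 with all libraries, 0 in cerebrum alone and 26 to 122 with each library left out. The interaction of Snhg11, not called, turned to -0.000498 with voom, -0.0654 with length and GC trends removed and -0.0547 with the block added, and that of Prlr ranged from -0.67 to 0.0109 with each library left out, turning positive without Cerebrum WT 1. Of the other values under alternatives, 2889 kept direction and side of the threshold, 101 came to pass and 246 no longer passed. The cause was not tested. All 17 genes kept their sign under the alternatives and with each library left out.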

Other observations

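Interferon-induced genes had 4 positive interactions past an unadjusted p of 0.05 of 19 tested (21.1% against 16.2% of all genes), none past the adjusted p. Iigp1, an immunity-related GTPase gene, was at 0.98 and Ifi44 at 0.71 (edgeR adjusted p = 0.129 and 0.19). Both had few counts in cerebrum, 17 to 48 and 12 to 34 per library. Genes of the unfolded protein response were near the background, with 3 of 29 past the unadjusted p (10.3%) and a median of 0.04, and Atf4, the transcription factor of the integrated stress response, was at -0.46 (edgeR adjusted p = 0.116). Of the thymocyte and cell cycle genes with at least 1 CPM in each of the 4 groups (11 and 18), 0 passed the unadjusted p. With that minimum 20.7% of all genes passed it. None of either list passed the adjusted p. Without that minimum 4 of 27 and 3 of 25 passed the unadjusted p (14.8% and 12%, against 16.2% of all genes), among them genes of few counts in cerebrum.

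Cirbp, which encodes a cold-inducible RNA-binding protein, was at 63.2, 108, 54.5 and 96.2 CPM in Tol and 37.2, 39.7, 52.3 and 35.8 CPM in WT thymi, without overlap. In cerebrum it lay between 37.6 and 48.4 CPM in Tol mice and between 33.2 and 42.7 CPM in WT mice, with overlap. It rose in thymus (0.96, edgeR adjusted p = 0.0327), and its interaction was -0.77 (edgeR adjusted p = 0.167).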
